A study of Mus musculus with 9 samples.

Results

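The Oas and Ifit genes described here are the 2 classical families of antiviral genes that interferons switch on, followed in epithelial cells sorted from the crypts of the mouse small intestine. The members were chosen by symbol: Oas1a, Oas2, Oas3, Oasl1 and Oasl2 of the Oas family, and Ifit1, Ifit1bl1, Ifit2, Ifit3 and Ifit3b of the Ifit family. These are 10 of the 29288 genes in the count table, and all 10 had enough counts to be tested, among 18933 tested genes. RNA was sequenced from 9 female wild-type C57BL/6J mice. Control mice (n = 3) were injected intraperitoneally with phosphate-buffered saline (PBS) and sampled after 18 h, 18h-αGal mice (n = 3) were sampled 18 h after 2 μg of α-galactosylceramide (αGal), and 72h-αGal mice (n = 3) were sampled 72 h after the same dose. αGal is a glycolipid that activates natural killer T (NKT) cells, so the comparisons ask how the epithelium responds once these lymphocytes are activated. Live cells were sorted from the proximal small intestine as EpCAM+ and negative for CD45, CD31 and Ter119. The only controls were taken at 18 h, so at 72 h the effect of αGal and that of the sampling time cannot be told apart.

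Oas and Ifit proteins act on foreign RNA inside the cell. The oligoadenylate synthetases Oas1a, Oas2 and Oas3 are switched on by double-stranded RNA and make 2-5A, short chains of linked adenosines that act as an antiviral signal inside the cell. Oasl1 and Oasl2 are oligoadenylate synthetase-like proteins with a ubiquitin-like tail, and mouse Oasl1 is known to hold back translation of Irf7 mRNA. Ifit proteins are built of tetratricopeptide repeats. Ifit1 binds RNA whose cap lacks the marks of host mRNA and blocks its translation, and Ifit2 and Ifit3 are its relatives. Both families are textbook targets of type I and type III interferon, which act through a complex with Stat2 and Irf9 at a DNA element called the interferon-stimulated response element (ISRE). Interferon-γ, a main product of activated NKT cells, acts largely through another element, the gamma-activated site (GAS), and the interferon-inducible GTPases are its best known targets in epithelium.

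Libraries held between 8887861 and 32722293 counts, and the shallowest was control replicate 3, where 3 counts correspond to 7.13 normalised counts (raw counts divided by a single factor per library). Epithelial identity was clear: all 10 epithelial markers were detected in every library, summing to between 5918 and 7721 CPM (raw counts scaled to the library total). Within this list, Krt20 and Vil1 in control replicate 3 were 2.43-fold and 1.78-fold the mean of controls 1 and 2. Their means at 18 h were 2.12-fold and 1.59-fold that mean. Over the 10 markers the log2 ratio of control replicate 3 had a median of 0.22 and ran from -0.46 to 1.28. The part of this shift in the results was not tested. Markers of T and NK cells summed to between 0.401 and 6.39 CPM, and between 2 and 8 of the 10 such genes in the table were at 0 in each library. Cd3e, a chain of the T cell receptor complex, had 0 raw counts in all controls, at most 2 at 18 h, and 21, 8 and 2 in the 72h-αGal mice, and its part in the results at 72 h was not tested. General leukocyte markers summed to between 7.21 and 14.4 CPM, and myeloid markers to between 16.1 and 49.3 CPM. B and plasma cell markers lay between 1.02 and 4.77 CPM and the single erythroid marker in the table reached at most 4.003 CPM. Fibroblast markers lay between 1.86 and 2.81 CPM in the controls and between 0.292 and 0.669 CPM at 18 h, and endothelial markers between 2.59 and 3.15 CPM in the controls, at most 1.95 CPM at 18 h and at most 1.41 CPM at 72 h. The part of these shifts in the results was not tested. Control replicate 3 had the lowest myeloid sum (16.1 CPM) and a leukocyte sum of 9.56 CPM, below both other controls (11.9 and 14.4 CPM). It had the highest normalised count of the controls for each of the 10 Oas and Ifit genes, so the numbers of genes that passed the test at 18 h are given below with and without it. The attention to this library followed from seeing its values. Why it differed was not tested.

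The genes lie in 3 clusters. In the RefSeq annotation of build GRCm38.p6, the Ifit genes occupy chr19:34550550-34662981 in the order Ifit2, Ifit3, Ifit1bl1, Ifit3b, Ifit1, and the 70094-base span annotated for Ifit1bl1 on the minus strand also contains Ifit3b, Ifit1 and the non-member Ifit1bl2. Oasl2 and Oasl1 lie side by side at chr5:114896926-114937911. Oas2, Oas3 and Oas1a lie at chr5:120730333-120907544, with most other Oas1 copies between Oas3 and Oas1a. Near-identical stretches make some counts uncertain. Of all 100-base words in the transcripts, 27.2% of those of Ifit3b also occurred in Ifit3, and 16.7% of those of Ifit3 occurred in Ifit3b. Likewise 9.36% of those of Oas1a occurred in its copy Oas1g, and 31.8% of those of Oas1g occurred in Oas1a. For Ifit1 and Ifit1bl1 the shared part was 1.15% and 0.51%, and for Ifit2, Oas2, Oas3, Oasl1 and Oasl2 it was 0.0%. Oasl1 overlaps the antisense gene Gm13822 over 3.14% of its exon length, and because the strand setting of the counting is not given, reads of that stretch cannot be assigned to one of them.

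Promoter sequence was available in RefSeq (GRCm38.p6) for 9 of the 10 genes. Oas2 had no entry. The window of 300 bases, from 250 before to 50 after the annotated start, was searched on both strands for GAAANNGAA, the core of the ISRE, and for TTCNNNGAA, the core of the GAS. An ISRE core was found in 6 of the 9 genes (Oas1a, Oas3, Ifit1, Ifit1bl1, Ifit3 and Ifit3b), whereas 9.76% of the 27025 genes in the promoter table hold one. A GAS core was found in 2 of the 9 (Oas1a and Ifit2), against 9.55% of all genes. The windows of Oasl1 and Oasl2 held neither, which says only that these letters are not in these windows.

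The 250 bases before the start are printed 5′ to 3′ for the genes on which the results turn, with ISRE and GAS cores on either strand in capitals. The first pair are the genes that passed the test at 18 h, Oas1a (chr5:120907526-120907775, minus strand) and Ifit2 (chr19:34550444-34550693, plus strand), and the single capital run of Ifit2 and the first of Oas1a are GAS cores. The next pair are Ifit3 (chr19:34583279-34583528, plus strand) and Ifit3b (chr19:34607707-34607956, plus strand), which are near-copies of each other. The last is Ifit1 (chr19:34640639-34640888, plus strand).
Oas1a: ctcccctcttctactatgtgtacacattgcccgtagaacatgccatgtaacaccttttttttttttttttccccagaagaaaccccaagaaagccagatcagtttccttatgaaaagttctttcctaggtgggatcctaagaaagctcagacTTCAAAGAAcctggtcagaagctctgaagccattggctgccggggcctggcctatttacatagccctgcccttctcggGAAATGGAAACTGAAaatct
Ifit2: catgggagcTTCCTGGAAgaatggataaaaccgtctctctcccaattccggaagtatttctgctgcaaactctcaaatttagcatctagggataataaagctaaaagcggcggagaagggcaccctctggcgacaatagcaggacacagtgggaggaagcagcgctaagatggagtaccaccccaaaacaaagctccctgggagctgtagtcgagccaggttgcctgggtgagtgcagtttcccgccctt
Ifit3: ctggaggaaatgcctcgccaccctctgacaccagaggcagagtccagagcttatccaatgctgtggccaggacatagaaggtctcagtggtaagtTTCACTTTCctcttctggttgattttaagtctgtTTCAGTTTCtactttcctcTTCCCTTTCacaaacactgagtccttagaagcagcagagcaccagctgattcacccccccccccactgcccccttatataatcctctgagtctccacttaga
Ifit3b: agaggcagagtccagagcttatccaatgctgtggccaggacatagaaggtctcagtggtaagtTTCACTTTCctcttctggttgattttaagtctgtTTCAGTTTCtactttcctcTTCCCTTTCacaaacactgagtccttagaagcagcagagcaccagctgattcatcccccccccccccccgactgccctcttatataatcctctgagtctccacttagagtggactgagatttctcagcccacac
Ifit1: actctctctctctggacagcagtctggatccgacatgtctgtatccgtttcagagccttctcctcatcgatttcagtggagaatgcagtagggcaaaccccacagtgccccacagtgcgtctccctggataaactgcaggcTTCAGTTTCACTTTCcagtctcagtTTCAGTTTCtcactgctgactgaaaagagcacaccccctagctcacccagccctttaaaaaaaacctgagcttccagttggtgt

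Oas1a carries a GAS core that begins 98 bases before the start and 2 overlapping ISRE cores that begin 20 and 14 bases before it. Ifit2 carries a single GAS core, 241 bases before the first of its 2 annotated starts, and no ISRE core in either window. That absence concerns only these letters in these windows. Whether any core bears on the calls at 18 h was not tested. Ifit3 and Ifit3b each carry 3 ISRE cores with the same spacing, and 188 of 218 aligned bases (86.2%) of their upstream sequences are identical. The start of Ifit1 lies 146 bases from that of Ifit1bl2 on the opposite strand, so that 245 bases of the 2 promoter windows are the same DNA with the same 3 ISRE cores.

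**Figure D1:**
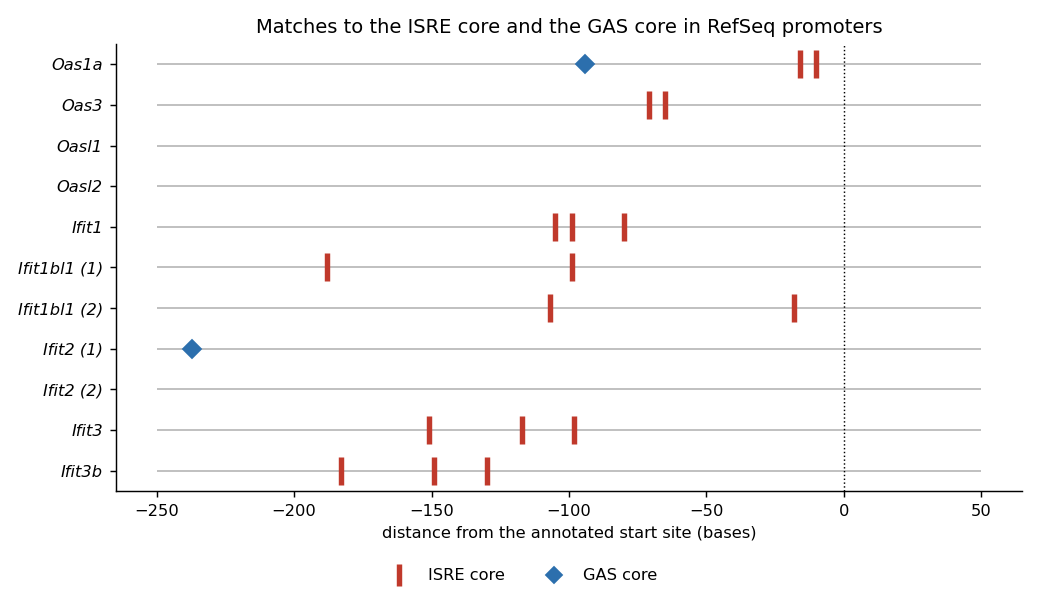
Position of each match to the ISRE core (red bars) and the GAS core (blue diamonds) from 250 bases before to 50 bases after the annotated start (dotted line), 1 grey line per RefSeq promoter. Matches to the ISRE core stand in 6 of 9 genes, and the GAS core stands only in Oas1a and the first promoter of Ifit2.

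At 18 h, Oas and Ifit transcripts were more abundant in αGal mice for most members, and in the edgeR fit of all 9 libraries Ifit2 and Oas1a passed the test. Ifit2 was 10.8-fold higher than in controls and Oas1a 3.04-fold higher, and the quasi-likelihood test of edgeR, adjusted over all tested genes by the method of Benjamini and Hochberg, called these 2 of the 10 members, where 3.27% of all tested genes were called higher. No member was called lower. In 7 of the 10 members, all 5 Oas genes with Ifit2 and Ifit3, the lowest 18h-αGal mouse lay above the highest control, which was so for 11.5% of all tested genes. The median log2 fold change of the members was 1.56, beside -0.03 over all tested genes. The p-values measure the spread between these mice. In bulk RNA a change in the number of expressing cells and a change in RNA per cell cannot be told apart.

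**Figure D2:**
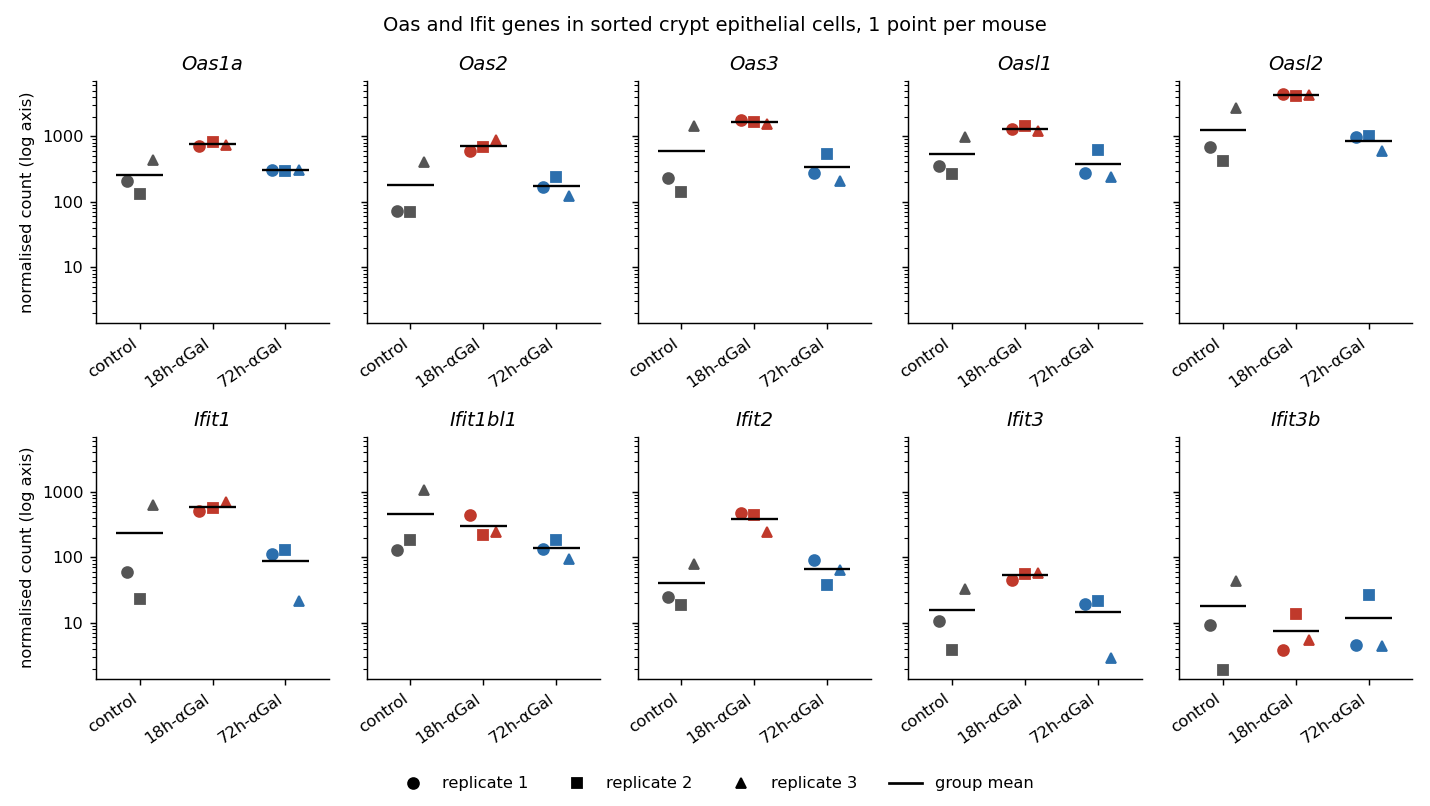
Normalised counts (log axis, the same in all panels) of the 10 genes in each mouse, with marker shape for the replicate number and a bar for the group mean. The 18h-αGal points lie above all controls for the 5 Oas genes, Ifit2 and Ifit3, and the control triangle (replicate 3) is the highest control in each panel.

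Oas1a makes 2-5A and is one of the enzymatically active mouse Oas1 copies. It had 207, 134 and 442 normalised counts in controls 1, 2 and 3 and 722, 823 and 749 in the 18h-αGal mice. All 18h-αGal mice lay above all controls, and the 18h-αGal values were close to each other. Its log2 fold change was 1.60 ± 0.32 (SE, n = 3 mice per group, edgeR adjusted p = 0.0114). Leaving out a single library ended this call in 2 cases, without control replicate 1 (edgeR adjusted p = 0.07) and without 18h-αGal replicate 2 (edgeR adjusted p = 0.0512). Part of its transcript is shared with Oas1g, which had 60.5, 85.4 and 281 normalised counts in controls and 329, 363 and 484 at 18 h.

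Oas2 and Oas3 are the larger synthetases, and Oas3 is known for its high affinity for long double-stranded RNA. Oas2 had 71.7, 70.2 and 402 normalised counts in controls and 592, 693 and 882 at 18 h. Controls 1 and 2 were nearly equal and control 3 lay between them and the αGal mice. This gave a log2 fold change of 2.10 ± 0.68 (SE, edgeR adjusted p = 0.128). Oas3 had 231, 141 and 1448 normalised counts in controls and 1794, 1645 and 1549 at 18 h. The groups did not overlap, but control 3 fell just short of the lowest 18h-αGal mouse, and the log2 fold change of 1.53 ± 0.89 was within the spread between replicates (SE, edgeR adjusted p = 0.408).

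The Oas-like genes followed the same order of groups. Oasl1 had 353, 264 and 994 normalised counts in controls and 1309.6, 1419 and 1195 at 18 h. The groups stood apart, with control 3 nearer to the αGal mice than to the other controls. Its log2 fold change was 1.33 ± 0.56 (SE, edgeR adjusted p = 0.236). Oasl2 had 681, 414 and 2713 normalised counts in controls and 4359, 4116 and 4288 at 18 h. The 18h-αGal mice agreed closely, with a coefficient of variation of 2.94%, while that of the controls was 99.1%. On the log2 scale the difference was 1.79 ± 0.69 (SE, edgeR adjusted p = 0.21).

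Among the Ifit genes, Ifit2 gave the firmest result. It had 24.7, 19.0 and 78.5 normalised counts in controls and 484, 449 and 240.1 at 18 h. Each αGal mouse was at least 3 times above the highest control. The log2 fold change was 3.43 ± 0.52 (SE, 95% confidence interval 2.30 to 4.56, edgeR adjusted p = 0.0024). Its relative Ifit3 had few reads, with 10.6, 3.80 and 33.3 normalised counts in controls and 45.4, 55.7 and 58.0 at 18 h. The groups did not overlap, and the log2 fold change was 1.85 ± 0.85 (SE, edgeR adjusted p = 0.228).

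Ifit1, Ifit1bl1 and Ifit3b overlapped between the groups. Ifit1, the sensor of unmarked caps, had 59.3, 22.8 and 635 normalised counts in controls and 511, 572 and 691 at 18 h. Control 3 lay inside the range of the αGal mice, far above controls 1 and 2. On the log2 scale the difference was 1.41 ± 1.21 (SE, edgeR adjusted p = 0.591). Ifit1bl1, an Ifit1-like gene, had 131, 183 and 1075 normalised counts in controls and 440.1, 219 and 241 at 18 h. Control 3 exceeded all αGal mice, and controls 1 and 2 lay below them. On the log2 scale the difference was -0.56 ± 0.80 (SE, edgeR adjusted p = 0.766).

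Ifit3b, a near-copy of Ifit3, was sparsely counted, with 9.40, 1.90 and 42.8 normalised counts in controls and 3.78, 13.5 and 5.52 at 18 h, from 2 to 18 raw counts per library in these groups. No order of the groups was visible at this depth. The log2 fold change was -1.15 ± 1.28 (SE, 95% confidence interval -3.88 to 1.58, edgeR adjusted p = 0.677). Its promoter has the ISRE cores of Ifit3 printed above, and since the genes share part of their transcripts, their counts are uncertain.

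The number of members that passed the test depended on control replicate 3. Its counts were 2.59-fold (Oas1a) to 15.5-fold (Ifit1) above the mean of controls 1 and 2, at least 2-fold in 10 of 10 members, where 8.26% of all tested genes were at least 2-fold higher in this library (log2 ratio of 1 or more after adding 1 normalised count). The median log2 ratio was 2.40 for the members and -0.05 for all tested genes. For the Oas genes control 3 reached between 55.6% (Oas2) and 87.1% (Oas3) of the mean at 18 h, for Ifit2 20.1%, for Ifit3 62.8% and for Ifit1 107%. For Ifit1bl1 and Ifit3b it exceeded that mean, at 358% and 564%.

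Without control replicate 3, edgeR called 7 of the 10 members higher at 18 h (all 5 Oas genes, Ifit1 and Ifit2), where 4.25% of all tested genes were called higher. The median log2 fold change of the members was then 2.89. This library was singled out as the highest control in every member, so leaving it out had to raise each fold change. The adjusted p-values of this fit do not allow for that choice and are given as a description. Oas2 reached 3.34 ± 0.31 (SE, edgeR adjusted p = 5.25e-06) and Oasl2 2.95 ± 0.27 (SE, edgeR adjusted p = 8.08e-05). Oas3 reached 3.15 ± 0.41 (SE, edgeR adjusted p = 0.00231), Oasl1 2.08 ± 0.39 (SE, edgeR adjusted p = 0.0134) and Oas1a 2.16 ± 0.23 (SE, edgeR adjusted p = 2.36e-05). The largest values were those of Ifit2, 4.15 ± 0.46 (SE, edgeR adjusted p = 3.84e-05), and Ifit1, 3.81 ± 0.75 (SE, edgeR adjusted p = 0.0219). Ifit3 (2.83 ± 0.92, edgeR adjusted p = 0.0733), Ifit1bl1 (0.95 ± 0.36, edgeR adjusted p = 0.129) and Ifit3b (0.40 ± 1.51, edgeR adjusted p = 0.922) were not called, and the last 2 changed sign from the fit of all libraries. Limma-voom called the same 7 members with all 9 libraries, where it called 4.67% of all tested genes higher. DESeq2 called Ifit2 and Oas1a, where it called 2.75% of the genes in its fit, and gave no adjusted p for Oas3.

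**Figure D3:**
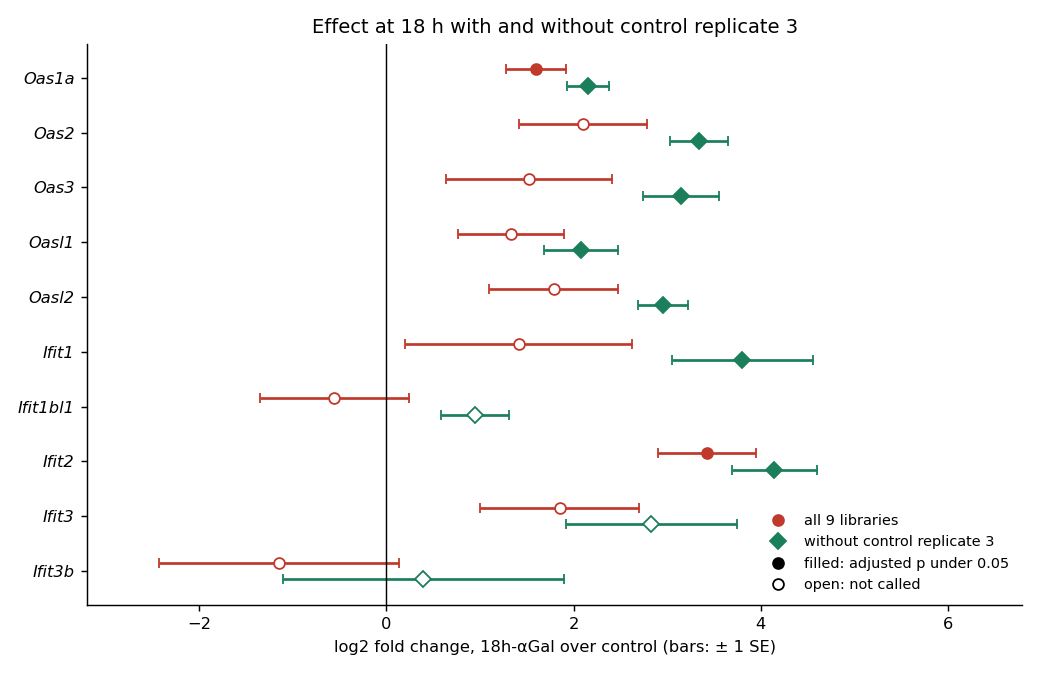
Log2 fold change of each gene at 18 h over control (± 1 SE) from all 9 libraries (red circles) and without control replicate 3 (green diamonds), filled where the edgeR adjusted p was under 0.05. With all libraries 2 of 10 genes are filled, and without control replicate 3 there are 7, at larger fold changes and mostly shorter error bars. Control replicate 3 was the highest control in every gene, so leaving it out had to raise each fold change.

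At 72 h all 10 members overlapped with the controls, of which control replicate 3 was the highest. In the edgeR fit of all 9 libraries no member was called higher or lower than control, and none had an unadjusted p under 0.05. DESeq2 and limma-voom also called 0. Of all tested genes, 0.0% were called higher and 0.0264% lower. The median log2 fold change of the members was -0.48 with all libraries. Without control replicate 3 it was 0.92, with 9 of 10 members above 0 and still none called. Ifit2 was then at 1.57 ± 0.43 and Oas2 at 1.32 ± 0.29 (SE, edgeR adjusted p = 0.631 and 0.24). The median was thus on a different side of 0 with and without that library. Since it was the highest control in every member, leaving it out had to raise these values. The 95% confidence interval of Ifit2, at a log2 fold change of 0.84 ± 0.51 (SE, edgeR adjusted p = 0.885), ran from -0.26 to 1.95.

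Against 18h-αGal, 9 of 10 members had a negative log2 difference at 72 h, with a median of -1.95. Ifit2 had 92.7, 38.3 and 64.8 normalised counts in the 72h-αGal mice and Oas1a had 306, 299.5 and 306. All of these values lay below every 18h-αGal mouse and, for Oas1a, within the range of the controls. EdgeR called these 2 of the 10 members lower, where 6.04% of all tested genes were called lower: Ifit2 fell by 2.58 on the log2 scale (SE 0.49, edgeR adjusted p = 0.00558) and Oas1a fell by 1.32 (SE 0.31, edgeR adjusted p = 0.0176). The call for Oas1a was lost on leaving out 18h-αGal replicate 2 or any single 72h-αGal mouse (edgeR adjusted p between 0.0634 and 0.0779). In 9 of 10 members, all but Ifit3b, the highest 72h-αGal mouse was below the lowest 18h-αGal mouse, which was so for 16.3% of all tested genes.

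In the remaining Oas genes, too, all 72h-αGal mice lay below all 18h-αGal mice. Oas2 had 169, 240.0 and 121 normalised counts at 72 h and a log2 difference from 18 h of -2.02 ± 0.67 (SE, edgeR adjusted p = 0.107). Oas3 had 273, 543 and 210.5, with -2.28 ± 0.91 (SE, edgeR adjusted p = 0.19). In both genes the 72h-αGal mice lay below all 18h-αGal mice, and for Oas2 above controls 1 and 2. Oasl1 had 273, 628 and 237 normalised counts at 72 h, with -1.78 ± 0.57 (SE, edgeR adjusted p = 0.101). Oasl2 had 981, 1021 and 589, with -2.30 ± 0.70 (SE, edgeR adjusted p = 0.1). In 72h-αGal replicate 2 Oas3 and Oasl1 stood well above the rest of their group, though below the 18h-αGal mice.

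Among the Ifit genes, Ifit1 had 111, 129 and 21.3 normalised counts at 72 h and differed from 18 h by -2.78 ± 1.27 (SE, edgeR adjusted p = 0.249). Ifit3 had 19.7, 21.2 and 2.94, with -1.87 ± 0.83 (SE, edgeR adjusted p = 0.183). In both, 72h-αGal replicate 3 was the lowest of its group by a wide margin. Ifit1bl1 had 134, 185 and 95.7, with -1.13 ± 0.81 (SE, edgeR adjusted p = 0.467). Ifit3b had 4.63, 26.2 and 4.42, with 0.63 ± 1.26 (SE, edgeR adjusted p = 0.825), and its mice overlapped with those of every other group.

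Control replicate 3 is not part of the comparison of 72 h with 18 h, but the control libraries entered the shared estimate of the spread. With only the 6 αGal libraries in the fit, edgeR called 8 of the 9 members tested lower, all but Ifit3, where 7.93% of all tested genes were called lower, and Ifit3b did not pass the filter on low counts. The log2 differences hardly moved: that of Oasl2 was -2.29 ± 0.18 (SE, edgeR adjusted p = 1.42e-05) and that of Oas2 -2.02 ± 0.25 (SE, edgeR adjusted p = 0.000558). Without control replicate 3 alone, 8 of 10 were called lower, where 7.49% of all tested genes were. Limma-voom with all libraries called 7 of 10, where it called 7.55% of all tested genes lower.

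**Figure D4:**
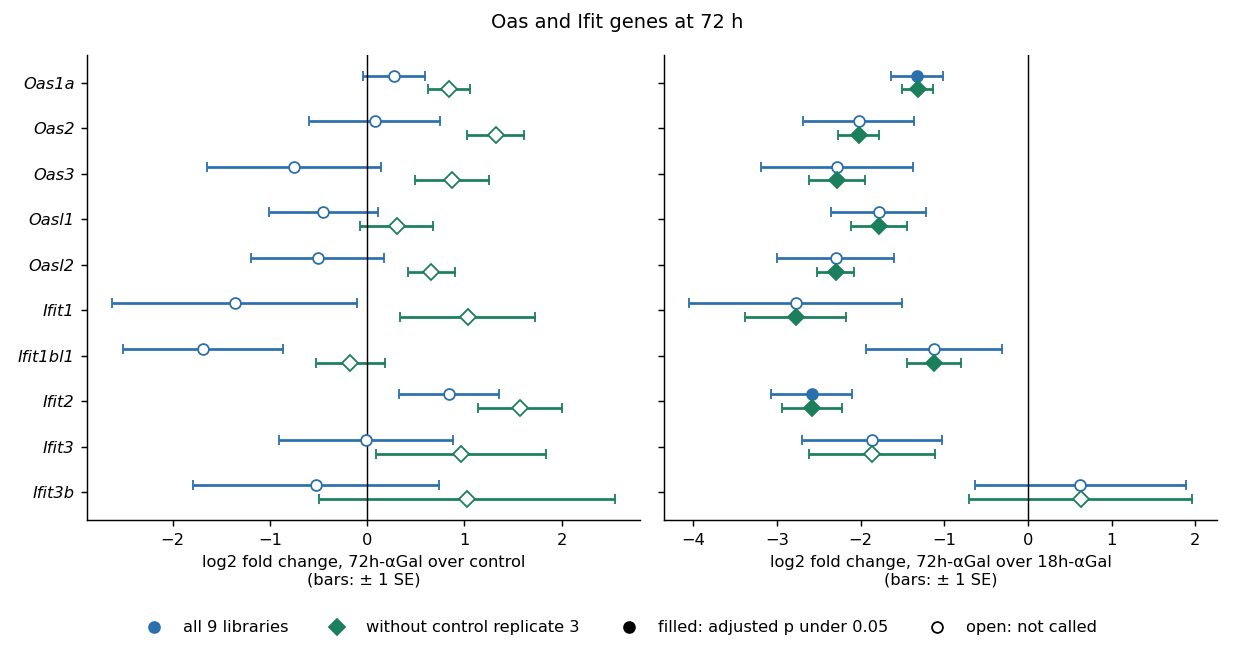
Log2 fold change (± 1 SE) at 72 h over control (left) and at 72 h over 18 h (right) for each gene, from all 9 libraries (blue circles) and without control replicate 3 (green diamonds), filled where the edgeR adjusted p was under 0.05. Over control no point is filled in either fit; over 18 h the 2 fits give nearly the same differences, with 2 genes filled in the first and 8 in the second.

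Levels per kilobase of exon used the joined length of all exons annotated for a gene, whether used in these cells or not. The order of the genes is thus only a rough guide to transcript levels. By this measure Oasl2 and Oasl1 had the highest level of the members at 18 h, at 667 and 501 normalised counts per kb. Their mice did not overlap (646 to 684 for Oasl2 and 457 to 543 for Oasl1). Oas3 followed at 235 per kb and Oas2 at 162, again without overlap (219 to 254 and 133 to 197). Ifit1bl1 (133), Oas1a (95.7), Ifit1 (79.7) and Ifit2 (66.2) were next, and from Oas2 down to Ifit2 each gene overlapped with the one after it. Ifit3 (18.4) and Ifit3b (3.72) were lowest, and neither overlapped with its neighbour above. In the controls Oasl1 (205 per kb), Ifit1bl1 (205) and Oasl2 (199) were at the top, and their mice overlapped widely. These means were raised by control replicate 3, with ranges over the controls of 100.985 to 380.3 for Oasl1, 58.0 to 475 for Ifit1bl1 and 64.9 to 426 for Oasl2, each highest in that library. At 72 h Oasl1 (145) and Oasl2 (136) were again highest and Ifit3 (5.07) and Ifit3b (5.76) lowest.

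Levels of the members ran largely in parallel across the 9 libraries. Of 45 pairs, Pearson correlations of log2 CPM ran from -0.03 (Ifit2 with Ifit3b) to 0.98 (Oas3 with Oasl2), with a median of 0.87. The 9 pairs that contain Ifit3b reached at most 0.52. These values are descriptions over 9 libraries that share the group structure, and control replicate 3 is one of the high points in them.

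Sensors of foreign nucleic acid are the partners of these families. The 15 genes for RNA sensing had a median log2 fold change of 0.42 at 18 h. By edgeR 0 fell and 3 rose, where 3.27% of all tested genes rose. These were Eif2ak2, the kinase PKR that halts translation on double-stranded RNA (0.97 ± 0.16, edgeR adjusted p = 0.00285), Adar, which edits double-stranded RNA (0.83 ± 0.16, edgeR adjusted p = 0.00705), and Zc3hav1, a zinc-finger antiviral protein (0.75 ± 0.13, edgeR adjusted p = 0.00378). Without control replicate 3, 11 of 15 were called higher, where 4.25% of all tested genes were. That library was left out for its high values, so this count is a description. Against 18 h, 8 of the 15 fell at 72 h, where 6.04% of all tested genes did. Of the 4 tested genes for DNA sensing, Samhd1 and Cgas rose, by 1.68 ± 0.16 (SE, edgeR adjusted p = 5.24e-05) and 1.06 ± 0.28 (SE, edgeR adjusted p = 0.0349).

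Of 5 genes listed around the 2-5A pathway, 3 had a negative log2 fold change at 18 h, and the median was -0.07. Abce1, a ribosome recycling factor, rose (0.67 ± 0.12, edgeR adjusted p = 0.00546).

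Among the transcription factors of the interferon response, Irf8 (1.39 ± 0.20, edgeR adjusted p = 0.00204) and Irf1 (0.76 ± 0.16, edgeR adjusted p = 0.0135) rose at 18 h. Stat2, part of the complex at the ISRE, had a log2 fold change of 1.70 ± 0.43 (SE, edgeR adjusted p = 0.067), Irf9 0.39 ± 0.15 (SE, edgeR adjusted p = 0.153) and Irf7 0.58 ± 0.27 (SE, edgeR adjusted p = 0.255). Control replicate 3 had 1747 normalised counts of Stat2 and 1888 of Irf7, against a mean of 599 and 907 in the other controls.

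At 18 h against control, receptors and kinases upstream did not pass the test. Of 9 receptor and Janus kinase genes, 0 were called by edgeR, DESeq2 or limma-voom, and 1 had an unadjusted p under 0.05, Ifngr2, a chain of the interferon-γ receptor, at -0.54 ± 0.18 (SE, edgeR adjusted p = 0.0999). Of 20 listed interferon genes of types I and III, 5 were in the table and only Ifnk had enough counts to be tested, with 31.7 ± 22.1 normalised counts in controls and 24.0 ± 18.8 at 18 h (SD, n = 3, edgeR adjusted p = 0.82). Among 6 feedback genes, Socs1 and Usp18, which dampen interferon signalling, rose by 1.60 ± 0.22 (SE, edgeR adjusted p = 0.00106) and 2.35 ± 0.56 (SE, edgeR adjusted p = 0.0316), and Socs3 fell by 1.07 (SE 0.25, edgeR adjusted p = 0.0238).

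Other interferon effectors also depended on control replicate 3. Of 21 tested, 4 rose at 18 h by edgeR (Bst2, Ube2l6, Mx1 and Ifitm3), where 3.27% of all tested genes did. The median log2 fold change was 0.98. Without control replicate 3, 14 rose, where 4.25% of all tested genes did, with a median of 1.79. Bst2, which tethers virus particles to the cell surface, reached 3.21 ± 0.34 (SE, edgeR adjusted p = 0.000124) and Mx1, an antiviral dynamin-like GTPase, 1.99 ± 0.50 (SE, edgeR adjusted p = 0.0288). Limma-voom with all libraries called 12, where it called 4.67% of all tested genes higher. In control replicate 3, 12 of these 21 genes were at least 2-fold above the mean of the other controls, with a median log2 ratio of 1.44.

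The interferon-inducible GTPases attack the vacuoles of intracellular microbes. Of 17 tested, 14 rose at 18 h by edgeR, where 3.27% of all tested genes did. The median log2 fold change was 4.55. Without control replicate 3, 15 rose, where 4.25% of all tested genes did, with a median of 4.62. Tgtp1 (7.05 ± 0.70, edgeR adjusted p = 0.000124), Iigp1 (6.69 ± 0.65, edgeR adjusted p = 0.00201) and Tgtp2 (5.28 ± 0.48, edgeR adjusted p = 0.000131) had the largest changes among those called, and Tgtp1 and Tgtp2 are near-identical copies whose counts may be split. In control replicate 3 the median log2 ratio of the 17 GTPases to the other controls was 0.66. That library reached the lowest 18h-αGal mouse in 0 of the 17, and in 3 of the 10 Oas and Ifit genes. Over all 18933 tested genes it did so in 13182. The difference between the lists was not tested.

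Sums over each list show the position of control replicate 3. The 10 Oas and Ifit genes summed to 92.5, 68.4 and 372 CPM in the controls, 528, 517 and 480 CPM at 18 h and 125, 162 and 92.6 CPM at 72 h. Control 3 lay nearer to the 18h-αGal mice than to the other controls. The 17 GTPases summed to 114, 103 and 222 CPM in the controls and to 1572, 1745 and 1393 CPM at 18 h, so that all controls stayed far below.

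**Figure D5:**
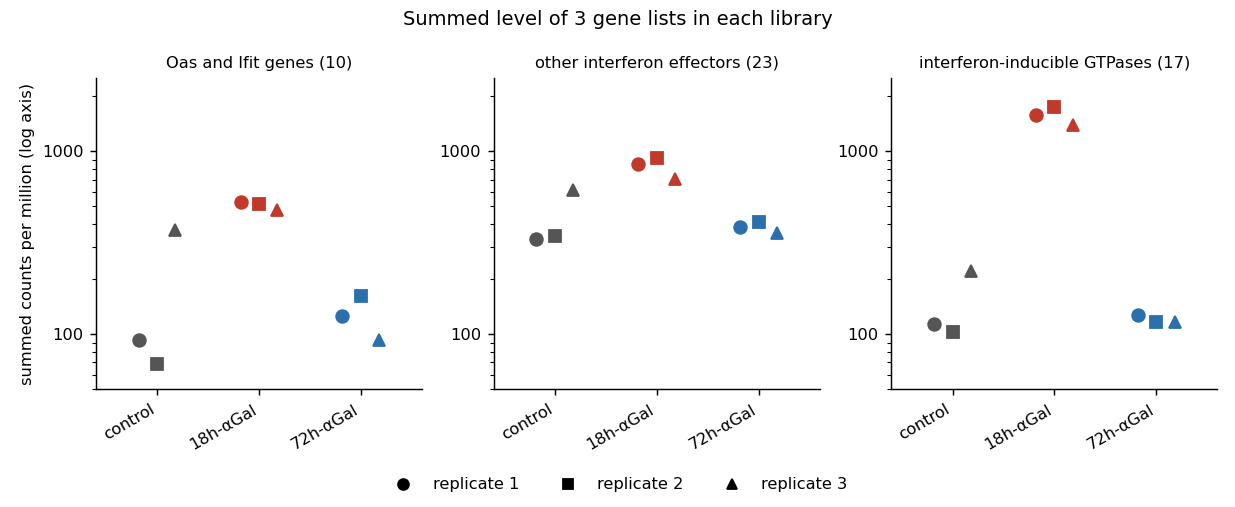
Summed CPM (log axis) of 3 gene lists in each library, with marker shape for the replicate number. For the Oas and Ifit genes control replicate 3 stands at 372 beside 480 to 528 at 18 h, and for the GTPases at 222 beside 1393 to 1745.

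The other Ifit and Oas1 copies are close relatives of the members. Of 8 such genes 5 were tested, 0 were called at 18 h by edgeR and 1 each by DESeq2, by limma-voom and by edgeR without control replicate 3, while 2 had an unadjusted p under 0.05. These were Oas1g, at 1.54 ± 0.47 (SE, edgeR adjusted p = 0.078), and Oas1h, at 1.83 ± 0.77 (SE, edgeR adjusted p = 0.189). Ifit1bl2, which shares its promoter DNA with Ifit1, had 100.4, 103 and 549 normalised counts in controls and 211, 307 and 389 at 18 h, which gave a log2 difference of 0.33 ± 0.75 (SE, edgeR adjusted p = 0.863). Its control 3 value exceeded all αGal mice, as for Ifit1bl1. Oas1d, Oas1e and Oas1f had too few counts to be tested.

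Genes next to the clusters serve as a local comparison. Of the 5 nearest protein-coding genes on each side, 7 were tested around the Ifit cluster, 8 around Oasl1 and Oasl2 and 7 around the Oas cluster. Their median log2 fold changes at 18 h were 0.03, 0.00 and -0.09. EdgeR called 1, 0 and 0 higher, where it called 3.27% of all tested genes. Limma-voom called 3, 1 and 0 (4.67% of all tested genes), and DESeq2 2, 0 and 0 (2.75% of the genes in its fit). Without control replicate 3 the edgeR counts were 1, 1 and 0, where 4.25% of all tested genes were called higher.

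The genes whose levels over the 9 libraries were most like the members (Pearson correlation of log2 CPM with the mean z-score of the 10 members, at a mean of at least 100 normalised counts) were Xaf1 (0.99), Dhx58 (0.98), Parp14 (0.98), Irf7 (0.97), Rnf213 (0.97), Znfx1 (0.97), Slx4 (0.97), Tbk1 (0.97), Ifih1 (0.97) and Ndufab1 (0.97). None of these 10 was called at 18 h by edgeR, and Xaf1 had a log2 fold change of 1.16 (edgeR adjusted p = 0.243). The choice of the 10 depended on the measure: 1 of them stayed among the first 10 by Spearman correlation and 2 by Pearson correlation without control replicate 3.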

How the data were processed

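Per the labels and the methods of the study, the authors made ribosomal RNA-depleted directional libraries, sequenced 100-base reads and mapped them with HISAT2. FeatureCounts is listed for counting, with no strand setting. The labels list the build GRCm38, while the methods name GRCm39, so positions come only from RefSeq GRCm38.p6. The authors deposited raw counts per gene and a normalised signal, which equals the count divided by 1 factor per library and has no length correction. Symbols and exon lengths came from GENCODE M39 by Ensembl identifier (28480 of 29288 matched). Exon length was the joined length of all exons annotated for a gene. Raw counts were tested with edgeR 4.0.16 in R 4.3.3 (filterByExpr, TMM, robust quasi-likelihood with 1 mean per group over all 9 libraries, Benjamini-Hochberg adjustment over 18933 genes, called under 0.05). The common dispersion was 0.123. Standard errors came from the F statistic. DESeq2 1.42.0 and limma-voom (limma 3.58.1) were alternatives, besides other normalization, filters, a replicate block and leaving out each library, and counts of gene lists without control replicate 3 were added after the data were seen. The fit was run on simulated counts with the same dispersion for all genes and no deviant library, so that run does not bear on control replicate 3. Its required recovery of changed genes was lowered after a first run fell short. Replicates are separate mice. Confidence intervals of fold changes came from the edgeR fit and include the spread between mice, while the floor of 3 counts covers counting error only. The members, gene lists and tests were chosen with earlier results of these data known. All members are named, with up to 5 called genes per list (otherwise those with the lowest p), a few fixed regulators, and the 10 genes most like the members. Some items of these lists are not reported here.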

Additional observations from a re-analysis of the deposited data

Results flagged for a closer look

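The effect of αGal on Ifit2 and Oas1a differed between the times. The log2 effect at 72 h minus that at 18 h was -2.58 ± 0.49 for Ifit2 (SE, edgeR adjusted p = 0.00558) and -1.32 ± 0.31 for Oas1a (SE, edgeR adjusted p = 0.0176). Both effects were measured against the same 18 h controls, so this difference is the comparison of the 72h-αGal with the 18h-αGal mice, of which 3 of 3 lay below all 18h-αGal mice in both genes. Without a control at 72 h, time and treatment cannot be told apart.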

How the results depend on the processing

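Of 534 log2 fold changes of the members under alternatives, 472 kept their direction and side of the threshold, 35 newly passed it, 6 no longer did and 21 changed sign. With 3 mice per group and a control replicate that stood apart, calls near the threshold depended on single libraries, and the counts of Ifit3 and Ifit3b were too few for firm values.

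The number of members called higher at 18 h was 2, where 3.27% of all tested genes were called higher. It was 7 by limma-voom (4.67% of all tested genes). Leaving out each library gave between 1 and 7, with 7 without control replicate 3 (4.25%). The number called lower at 72 h against 18 h was 2, where 6.04% of all tested genes were called lower. It was 7 by limma-voom (7.55%) and 8 with only the 6 libraries compared (7.93%). DESeq2 called 5 and a non-robust fit 6, and their shares over all genes are not given here. Leaving out each library gave between 1 and 8, with 8 without control replicate 3 (7.49%). For 72 h against control the number stayed at 0 in every alternative run. Over all genes, 1128 were called at 18 h, 426 of at least 2-fold change, 1720 by DESeq2 and 593 with only the 6 libraries compared, and between 432 and 1556 on leaving out each library. For 72 h against control 5 genes were called, 13 with no filter, 31 by DESeq2, 3 with a non-robust fit and between 0 and 20 on leaving out each library. For 72 h against 18 h 1936 were called, 682 of at least 2-fold change and between 831 and 2593 on leaving out each library.

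Signs changed for single genes. On leaving out each library, the log2 difference at 18 h ran from -1.02 to 0.95 for Ifit1bl1, -1.87 to 0.40 for Ifit3b, -0.066 to 1.57 for Ifit1bl2 and -1.84 to 1.28 for Oas1c. At 72 h against control it ran from -1.93 to 1.03 for Ifit1, -0.50 to 0.96 for Ifit3, -1.89 to 1.02 for Ifit3b, -0.036 to 0.84 for Oas1a, -0.34 to 1.32 for Oas2, -1.25 to 0.87 for Oas3, -1.02 to 0.30 for Oasl1 and -0.93 to 0.66 for Oasl2. The upper end of each range at 72 h against control was reached without control replicate 3. At 72 h against 18 h Ifit3b ran from -0.72 to 1.34. With all libraries, limma-voom gave 0.55 for Ifit1bl1 at 18 h, and at 72 h against control 0.050 for Ifit3, 0.13 for Ifit3b, 0.22 for Oas3 and 0.15 for Oasl2, while DESeq2 gave -0.022 for Oas2. The causes were not tested.

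Replicate numbers recur in the groups, and the labels name no pairing. Same-numbered libraries deviated together with correlations from -0.15 to 0.11, which cannot show whether their mice were handled together. With the replicate block, 781, 1 and 1371 genes were called in the comparisons in the order above, the members called stayed at 2, 0 and 2, Ifit3 was at 0.11 at 72 h against control and Oas1c at 0.024 at 18 h.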
